A study of Mus musculus with 6 samples.

Results

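Inhibitory receptors of macrophages, their ligand *Cd47* and the enzymes that carry their signal were examined in Raw264.7 cells after knockdown of *Etv5*. The group holds 10 genes, chosen by symbol, of 24786 gene symbols in the table: the receptors *Pirb*, *Sirpa*, *Siglece*, *Cd200r1*, *Cd300a* and *Lair1*, the ligand *Cd47*, the phosphatases *Ptpn6* and *Inpp5d*, and the kinase *Csk*. Of these, *Cd47* and *Siglece* more than doubled in level, *Ptpn6* rose slightly, and *Inpp5d*, *Csk*, *Pirb*, *Cd200r1* and *Sirpa* fell. *Cd300a* and *Lair1* did not pass the test.

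Polyadenylated RNA was sequenced from Raw264.7, a mouse macrophage line established from a tumor that Abelson murine leukemia virus had induced. The labels add the strain C57BL/6 and an age of postnatal day 21 for every library. The paper names C57BL/6 as the strain of its mice and Raw264.7 as a purchased line, so these labels may not describe the cultured cells. Cells carried a lentiviral control shRNA (sh-NC, n = 3 libraries, genotype labelled control) or a lentiviral shRNA against *Etv5* (sh-*Etv5*, n = 3 libraries, genotype labelled Etv5 knockdown). According to the labels, expression was read 24 or 48 h after infection. The paper, however, describes the sequenced cells as stably transfected, and according to its methods infected cells were passaged in puromycin. The shRNA used for sequencing is not named and no source says whether the libraries of a group were separate cultures, so p-values measure the spread between libraries, which may be technical. In a bulk culture, fewer cells that carry a transcript and less transcript per cell cannot be told apart.

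These genes form a brake on myeloid activation. A receptor binds its ligand, Src-family kinases phosphorylate tyrosines in its cytoplasmic tail, and the phosphotyrosines of the immunoreceptor tyrosine-based inhibitory motif (ITIM) recruit SHP-1, encoded by *Ptpn6*, SHP-2, or SHIP1, encoded by *Inpp5d*. SHP-1 removes phosphate from tyrosine kinases and adaptors, SHIP1 converts the lipid messenger that phosphoinositide 3-kinase makes, and Csk phosphorylates the inhibitory tyrosine of Src-family kinases. In macrophages, SIRPα bound by CD47 on another cell is the "don't eat me" signal that restrains phagocytosis.

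The cytoplasmic part of the receptors was read from the GENCODE release M21 coding sequence of the principal transcript, after the most hydrophobic stretch of 19 codons, which was taken as the membrane span. An ITIM was searched as isoleucine, leucine, valine or serine, any residue, tyrosine, any pair of residues, then isoleucine, leucine or valine. It was found in 5 of the 6 receptors, 11 times in all: 3 times each in *Pirb* and *Sirpa*, 2 times each in *Cd300a* and *Lair1*, and 1 time in *Siglece*. A switch motif, in which threonine comes first, was found 1 time each in *Sirpa* and *Siglece*. *Cd200r1* had no ITIM among the 65 codons after its membrane span, but 1 match to Asn-Pro-any-Tyr, the kind of site that phosphotyrosine-binding adaptors such as the Dok proteins recognise. The coding bases of the match nearest the membrane are shown for each receptor, to set the ITIM carriers beside *Cd200r1*. The tyrosine codon is in capitals and its number counts from the start codon.
*Pirb*, ITIM, codon 713: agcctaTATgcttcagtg
*Sirpa*, ITIM, codon 436: atcacaTACgcagacctg
*Siglece*, ITIM, codon 432: atacatTATgcgaccctc
*Cd300a*, ITIM, codon 262: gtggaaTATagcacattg
*Lair1*, ITIM, codon 228: gtgacgTATatccagctg
*Cd200r1*, no ITIM, codon 297: aatccactcTAT

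Values are RPKM as the authors made them, in which reads are scaled by gene length and by the size of the library, so levels of different genes can be set side by side. Among genes with a single annotated transcript, low values gathered at a common step and at multiples of it. Taken as 1 read, the step gives an estimated depth of 18.6 to 22.0 M reads per library (M for mega), although just 14.5 to 17.6% of the low genes sat at the step. RPKM summed to between 320462 and 322949 in sh-NC and between 330454 and 340257 in sh-*Etv5* libraries, where *Spp1* alone reached 11157 to 11721. Pearson correlations over the tested genes were 0.996 to 0.997 within groups and 0.913 to 0.915 between groups. Of 9 macrophage markers, 8 were tested, of which 4 rose and 4 fell, and *Mertk* stayed at or under 0.0653 RPKM. Their sum was 4455 to 4582 RPKM in sh-NC and 3549 to 3669.6 RPKM in sh-*Etv5* libraries. Every marker of B cells, T cells, dendritic cells, fibroblasts and epithelial cells was under 1 RPKM in every library. Of 5 neutrophil markers *S100a8* alone was tested, and the sum of the list was 0.123 to 0.491 against 15.6 to 19.7 RPKM, with *Ly6g*, *S100a9* and *Elane* at 0 in all libraries. The part of these shifts in the results was not tested.

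*Etv5* itself measured 9.18, 9.89 and 9.39 RPKM with sh-NC and 5.19, 4.91 and 5.28 RPKM with sh-*Etv5*. The groups did not overlap, and the mean fell by 46.0%.

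Groups were compared with limma on log2(RPKM + 1), and a gene was called at an adjusted p under 0.05 (Benjamini-Hochberg over 10738 tested genes). On this scale the change of a gene with low RPKM is understated. All 10 genes passed the filter of 1 RPKM in at least 3 libraries, but *Pirb* passed through its sh-NC libraries alone and *Siglece* needed its sh-*Etv5* libraries, so their entry depended on the group in which they were high. As a description, 3 of the 10 were higher and 5 lower with sh-*Etv5*. These counts, and those below, include *Siglece* and *Pirb*, whose values are given without a p. Of all tested genes 74.3% were called, 33.3% higher and 41.0% lower. The same 8 genes were called at an adjusted p under 0.01 in limma, against 64.3% of all tested genes. The libraries of both groups were separate for 8 of the 10 genes and for 76.4% of all tested genes. A called change above 0.5 in size was seen in 2 of the 10 and in 30.9% of all tested genes. The median log2 fold change was -0.18 for the 10 and -0.05 for all tested genes, and the median size was 0.30 and 0.31. The share called and the median size of the change lay near this background.

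**Figure D1:**
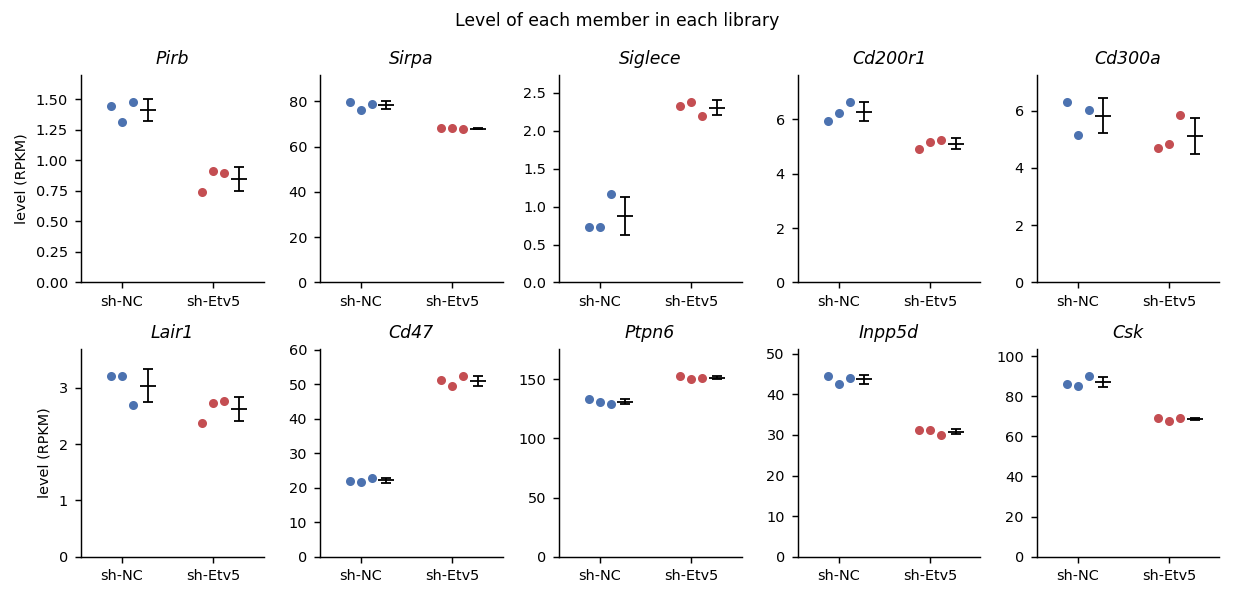
Level in RPKM (y axis, from 0) of the 10 genes in each sh-NC and sh-Etv5 library (points), with the mean and SD of 3 libraries beside them. The groups are separate for 8 genes and overlap for *Cd300a* and *Lair1*.

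With sh-NC, the enzymes and *Sirpa* were the most abundant of the 10 transcripts. Mean RPKM ran from *Ptpn6* (131) over *Csk* (87.1), *Sirpa* (78.3), *Inpp5d* (43.7), *Cd47* (22.1), *Cd200r1* (6.28), *Cd300a* (5.83), *Lair1* (3.04) and *Pirb* (1.41) to *Siglece* (0.872). Neighbours in this order were separate in all libraries except *Cd200r1* and *Cd300a*. *Sirpa* made up 81.8 ± 0.356% of the summed RPKM of the 6 receptors with sh-NC and 80.9 ± 1.00% with sh-*Etv5* (SD, n = 3). With sh-*Etv5* the order was *Ptpn6* (151), *Csk* (68.6), *Sirpa* (67.9), *Cd47* (51.0), *Inpp5d* (30.8), *Cd300a* (5.13), *Cd200r1* (5.11), *Lair1* (2.62), *Siglece* (2.30) and *Pirb* (0.849). *Cd47* now stood above *Inpp5d*, and *Siglece* above *Pirb*. Ranges overlapped for *Csk* and *Sirpa*, for *Cd300a* and *Cd200r1*, and for *Lair1* and *Siglece*.

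The ligand had the largest change of the 10 genes on the log2(RPKM + 1) scale, while *Siglece* was larger with a smaller pseudocount (1.34 against 1.20 at 0.1) and as a ratio of means. *Cd47* (GRCm38 chromosome 16, 49800533 to 49915010, plus strand) encodes a membrane protein that signals self to phagocytes through SIRPα. Its sh-NC libraries held 22.0, 21.6 and 22.9 RPKM and its sh-*Etv5* libraries 51.2, 49.4 and 52.3 RPKM. Every sh-*Etv5* library was far above every sh-NC library. The mean rose 2.30-fold, from 22.1 ± 0.662 to 51.0 ± 1.48 RPKM (SD, n = 3), and the log2 fold change was 1.17 with a standard error of 0.0405 (limma adjusted p = 6.91e-10). This was larger in size than the change of 93.4% of tested genes.

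*Sirpa* (chromosome 2, 129592835 to 129632228, plus strand), which encodes the receptor SIRPα, moved the other way by a small amount. Levels were 79.8, 76.3 and 78.8 RPKM with sh-NC against 68.2, 68.0 and 67.6 RPKM with sh-*Etv5*. The groups were separate, with a narrow spread in sh-*Etv5* cells. The mean fell by 13.3%, or -0.20 in log2 fold change with a standard error of 0.0333 (limma adjusted p = 0.000213). *Sirpa*, *Inpp5d* and *Csk* are among the genes that the study itself displayed from these libraries, so their directions are not independent evidence. The ratio of *Cd47* to *Sirpa* within a library, which scaling of whole libraries cannot move, went from 0.283 ± 0.00738 to 0.750 ± 0.0239 (SD, n = 3).

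Other genes that act with CD47 were measured as well. *Qpctl*, the enzyme that modifies the end of CD47 that SIRPα binds, rose from 6.26 ± 0.163 to 12.3 ± 0.152 RPKM (SD, n = 3), 0.88 in log2 fold change (limma adjusted p = 3.30e-08). *Thbs1*, which encodes a secreted ligand of CD47, was at 0 in 5 libraries and near 0 in the other. *Lrp1*, a receptor of the opposing prophagocytic signal, fell from 65.7 ± 1.99 to 45.9 ± 6.44 RPKM (SD, n = 3), -0.52 in log2 fold change (limma adjusted p = 0.000124).

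Promoter sequences from RefSeq (GRCm38.p6, 250 bases before to 50 after a start site) were matched for 8 of the 10 genes. *Sirpa* and *Cd200r1* had no promoter sequence in the set, which left out 1 chromosome that holds none of the 10 genes. *Etv5* encodes an ETS factor, a family that binds a GGAA core. GGAA on either strand was present in 8 of these 8 genes, with 1 to 7 matches per promoter, and in 96.5% of all genes in that set. The longer string CCGGAA on either strand, which contains GGAA, was present in *Cd47* alone of the 8, and in 16.7% of all genes in that set. The *Cd47* match is shown because it was the single match among these genes. It lies 203 bases before the nearer of its RefSeq start sites, at chr16:49855439-49855468 on the plus strand. The searched letters are in capitals, and binding there was not measured. Those start sites are inside the GENCODE span of *Cd47* given above, and the upstream end of that span was not searched.
*Cd47* promoter: caggacacgaagCCGGAAgagagctggctg

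**Figure D2:**
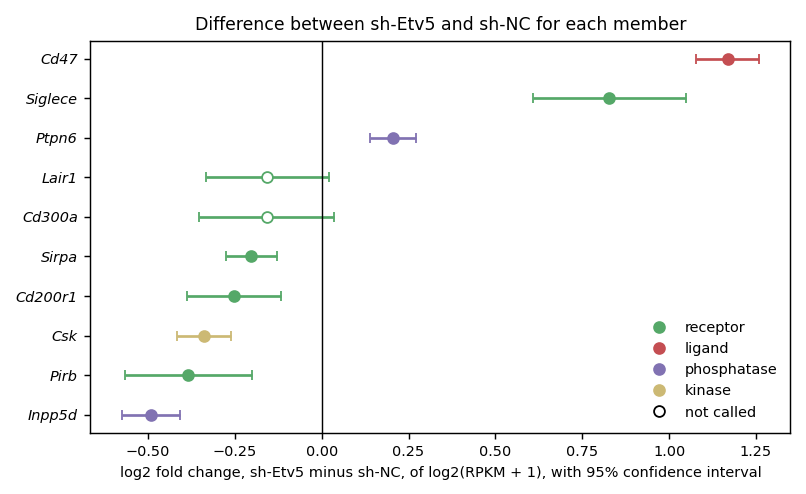
Log2 fold change of log2(RPKM + 1), sh-Etv5 minus sh-NC (x axis), with the 95% confidence interval from limma for each of the 10 genes. *Cd47* (1.17) and *Siglece* (0.83) stand to the right, and the open circles of *Cd300a* and *Lair1* have intervals that include 0. Entry to the fit depended on the higher group for *Siglece* and *Pirb*, so their intervals are descriptions.

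Among the receptors, *Siglece* was the single gene that rose. It encodes Siglec-E, which binds sialic acid on glycoproteins and glycolipids. *Siglece* (chromosome 7, 43651070 to 43660161, minus strand) measured 0.725, 0.729 and 1.16 RPKM with sh-NC and 2.33, 2.38 and 2.20 RPKM with sh-*Etv5*. Control libraries were low, with replicate 3 above the others, and all sh-*Etv5* libraries were higher. The mean rose 2.64-fold, and the log2 fold change was 0.83 with a standard error of 0.0991. A smaller pseudocount raised it to 1.34 (at 0.1) and 1.43 (at 0.01). At the estimated depth, between 27.7 and 97.0 reads stood behind each value.

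*Pirb*, which encodes the class I binding receptor PIR-B, moved in the opposite direction. *Pirb* (chromosome 7, 3711409 to 3720391, minus strand) had 1.44, 1.31 and 1.48 RPKM in control libraries against 0.737, 0.914 and 0.895 RPKM after knockdown. The groups did not overlap, and the sh-*Etv5* values were all under 1 RPKM. Its mean fell by 39.9%, -0.38 in log2 fold change with a standard error of 0.0828, and -0.73 with a pseudocount of 0.01. Of the 50-base sequences in its transcripts, 34.0% were found in further genes such as *Gm14548* and *Pira2*, so part of these reads cannot be assigned to *Pirb* with certainty. The activating relative *Pira2*, named after its values were seen, was at 0.605 ± 0.0529 and 0.477 ± 0.0150 RPKM (SD, n = 3) and did not reach the filter. Groups overlapped for its relatives *Pira1*, *Pira4*, *Pira6*, *Pira7* and *Pira11*, which also missed the filter and were also named after their values were seen.

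*Cd200r1*, the receptor for CD200 that signals through Dok adaptors, fell modestly. *Cd200r1* (chromosome 16, 44765736 to 44794978, plus strand) stood at 5.96, 6.24 and 6.65 RPKM in controls and 4.89, 5.18 and 5.25 RPKM in knockdown cells. The groups were separate by less than 1 RPKM. Its mean fell by 18.7%, -0.25 in log2 fold change with a standard error of 0.0615 (limma adjusted p = 0.00321). The activating relative *Cd200r4*, also named after its values were seen, shares sequence with 1.16% of the 50-base stretches of *Cd200r1* and was at 1.49 ± 0.457 and 0.679 ± 0.302 RPKM (SD, n = 3). *Cd200r4* reached the filter through its sh-NC libraries alone. Another activating relative, *Cd200r2*, went the other way, at 0.485 ± 0.195 and 1.16 ± 0.298 RPKM (SD, n = 3). It did not reach the filter, nor did *Cd200r3*, which stayed at or under 0.088 RPKM. Both were named after their values were seen. The ligand gene *Cd200* was listed at 0 in all 6 libraries.

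Differences of *Cd300a* and *Lair1* were within the spread of the libraries. CD300a binds lipids exposed on dying cells, and LAIR-1 binds collagens. *Cd300a* (chromosome 11, 114890041 to 114904654, plus strand) had 6.32, 5.16 and 6.02 RPKM with sh-NC and 4.69, 4.84 and 5.84 RPKM with sh-*Etv5*. The log2 fold change was -0.16, with a 95% confidence interval of -0.35 to 0.04 (limma adjusted p = 0.123). *Lair1* (chromosome 7, 4003402 to 4063204, minus strand), 0.283 Mb from *Pirb*, had 3.21, 3.20 and 2.69 RPKM with sh-NC and 2.37, 2.73 and 2.76 RPKM with sh-*Etv5*. Here the log2 fold change was -0.16, with an interval of -0.33 to 0.02 (limma adjusted p = 0.0996). Scaling all libraries to the same sum brought both past the threshold, *Cd300a* at -0.21 (limma adjusted p = 0.0405) and *Lair1* at -0.20 (limma adjusted p = 0.0414). Single libraries also decided this call. *Cd300a* was called without sh-NC replicate 2 (-0.23, limma adjusted p = 0.0381) or without sh-*Etv5* replicate 3 (-0.24, limma adjusted p = 0.0214), and *Lair1* without sh-NC replicate 3 (-0.22, limma adjusted p = 0.0427).

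The phosphatases did not move together. *Ptpn6* (chromosome 6, 124720707 to 124738714, minus strand), which encodes SHP-1, reached 133, 131 and 129 RPKM with sh-NC and 153, 150.4 and 151 RPKM with sh-*Etv5*. All sh-*Etv5* libraries were above all sh-NC libraries. Its mean rose by 15.4%, 0.21 in log2 fold change with a standard error of 0.0304 (limma adjusted p = 9.54e-05). The antisense gene *Gm20531* holds 5.01% of its 50-base sequences, and no source used here says whether strand was used in counting.

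*Inpp5d* (chromosome 1, 87620312 to 87720507, plus strand), which encodes the lipid phosphatase SHIP1, went down. Control libraries had 44.5, 42.5 and 44.0 RPKM and knockdown libraries 31.1, 31.3 and 30.1 RPKM, with no overlap. The mean fell by 29.5%, -0.49 in log2 fold change with a standard error of 0.0377 (limma adjusted p = 4.32e-07). The ratio of *Ptpn6* to *Inpp5d* within a library was 2.9995 ± 0.0659 with sh-NC and 4.91 ± 0.0989 with sh-*Etv5* (SD, n = 3).

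Each phosphatase has a close relative. *Ptpn11*, which encodes SHP-2, fell from 28.2 ± 0.983 to 23.2 ± 1.36 RPKM (SD, n = 3), -0.28 in log2 fold change (limma adjusted p = 0.000427), while *Ptpn6* rose. *Inppl1*, which encodes SHIP2, was at 37.5 ± 0.821 and 39.0 ± 1.93 RPKM (SD, n = 3), and its groups overlapped (limma adjusted p = 0.286). *Inpp5d* was above *Inppl1* in every sh-NC library and below it in every sh-*Etv5* library.

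*Csk* (chromosome 9, 57626646 to 57653631, minus strand), the kinase that holds Src-family kinases in their inactive form, also fell. It measured 85.9, 85.2 and 90.1 RPKM in sh-NC cells and 68.9, 67.8 and 69.2 RPKM in sh-*Etv5* cells, and the groups did not overlap. The mean fell by 21.2%, -0.34 in log2 fold change with a standard error of 0.0347 (limma adjusted p = 4.69e-06). *Pag1*, which encodes a membrane anchor for Csk and was named after its values were seen, fell from 5.83 ± 0.329 to 4.18 ± 0.276 RPKM (SD, n = 3, limma adjusted p = 0.000238).

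**Figure D3:**
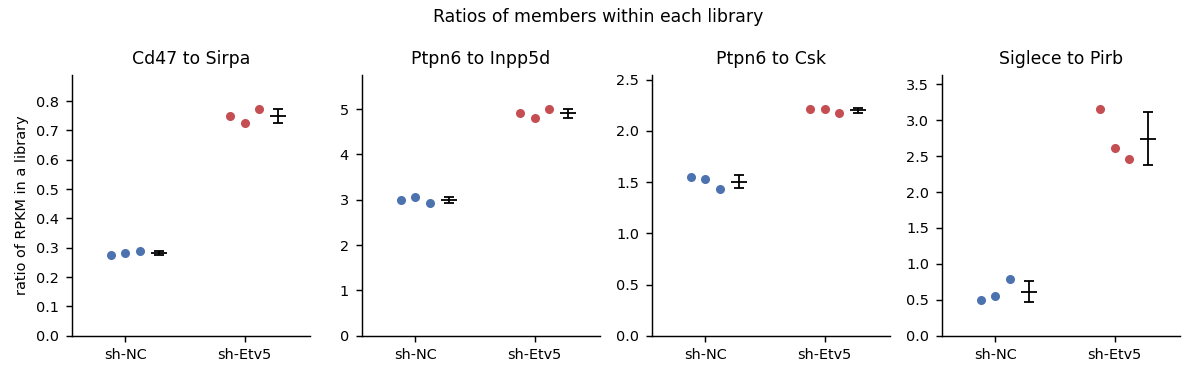
Ratio of the RPKM of 2 genes within each library (y axis, from 0), shown as points for 3 sh-NC and 3 sh-Etv5 libraries with the mean and SD beside them. For each of these 4 ratios all sh-Etv5 libraries are above all sh-NC libraries, which follows from the opposite directions of its genes.

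In all, 8 ratios were computed, chosen after the values were seen, and the groups were separate for 7 of them. That of *Ptpn6* to *Csk* went from 1.51 ± 0.0611 to 2.20 ± 0.0236, and that of *Siglece* to *Pirb* from 0.614 ± 0.150 to 2.74 ± 0.370 (SD, n = 3). The ratio of *Siglece* to *Pirb* is given without a p, like its genes. For the other separate ratios the two-sided exact permutation p was 0.1, the smallest that 3 against 3 libraries can give. After Benjamini-Hochberg adjustment over the 8, their permutation p was 0.114. *Cd47* to *Sirpa*, *Siglece* to *Pirb*, and *Ptpn6* to *Inpp5d*, *Csk* or *Ptpn11* each set a risen gene over a fallen one. Both genes were already separate between groups, so the separation of these ratios was fixed in advance and a p adds no support. The ratios of *Csk* to *Inpp5d* and of *Inpp5d* to *Inppl1* were also picked with the values known. Their p is a description and adds no support either. The ratio of *Sirpa* to *Lair1* was 26.0 ± 2.89 and 26.1 ± 2.35 (SD, n = 3), with overlapping groups.

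Other genes of the pathway were taken from lists that, like the 10 genes, were chosen with earlier results of these data known. The counts for these lists are descriptions, to be read against the 74.3% of all tested genes that were called (33.3% higher, 41.0% lower). *Pilra*, *Pilrb1*, *Pilrb2* and *Neu3* reached 1 RPKM in sh-*Etv5* libraries alone, and *Cd200r4*, *St6gal1* and *Fgr* in sh-NC libraries alone. They entered the fit, and these counts, only through the group in which they were high, so their values are given without a p. The same holds for the neutrophil marker *S100a8*. Among other ITIM receptors, 18 of 19 symbols were in the table and 9 were tested, of which 6 were higher, 2 lower and 1 not called after knockdown, or 88.9% called against 74.3% of all tested genes (median log2 fold change 0.72). *Pilra*, a paired receptor for sialylated proteins, was at 0.611 ± 0.260 and 17.9 ± 0.495 RPKM (SD, n = 3) in sh-NC and sh-*Etv5* cells, 3.56 in log2 fold change. *Fcgr2b*, the inhibitory Fc receptor for immunoglobulin G, rose from 24.8 ± 0.602 to 86.9 ± 1.49 RPKM (SD, n = 3), 1.77 in log2 fold change (limma adjusted p = 9.98e-12). *Ceacam1*, an adhesion receptor with ITIMs, rose from 2.01 ± 0.396 to 6.93 ± 0.678 RPKM (SD, n = 3). Those that fell were the C-type lectin receptor *Clec12a* (-1.12) and *Pdcd1*, which encodes PD-1 (-1.05), named after their values were seen. The list summed to 390.1 to 397 RPKM in sh-NC and 671 to 701 RPKM in sh-*Etv5* libraries, and most of that difference was *Lilrb4a*, an inhibitory receptor named after its values were seen, with 163 ± 3.08 and 359 ± 13.8 RPKM (SD, n = 3). For the 6 receptors described above, the sum went from 95.7 ± 2.47 to 83.9 ± 0.647 RPKM (SD, n = 3). Most of this difference was *Sirpa*, and without it the sums were 17.4 ± 0.713 and 16.0 ± 0.963 RPKM (SD, n = 3), with overlapping groups.

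Activating counterparts share ligands or sequence with the inhibitory receptors and signal through adaptors with an activation motif (ITAM). Of 9 tested genes, 4 were higher, 3 lower and 2 not called, or 77.8% called against 74.3% of all tested genes (median log2 fold change 0.11). *Cd300ld* rose from 6.36 ± 0.725 to 40.9 ± 2.26 RPKM (SD, n = 3), 2.51 in log2 fold change (limma adjusted p = 1.24e-10), while *Cd300a* of the same family did not pass. *Cd300lb* of that family fell from 34.1 ± 0.580 to 24.5 ± 0.866 RPKM (SD, n = 3), -0.46 in log2 fold change (limma adjusted p = 1.37e-06). *Cd300c2* and *Cd300lf* were not called. *Cd300lb*, *Cd300c2* and *Cd300lf* were named after their values were seen. *Pilrb1* and *Pilrb2*, activating relatives of *Pilra*, were at 4.63 ± 1.00 and 2.49 ± 0.151 RPKM (SD, n = 3) in sh-*Etv5* cells and at most at 0.02001 and 0.0267 RPKM in a control library. The ITAM adaptors moved in opposite directions. *Tyrobp* (DAP12) fell from 361 ± 14.1 to 254 ± 14.6 RPKM (SD, n = 3), -0.51 in log2 fold change (limma adjusted p = 1.61e-06). *Fcer1g* (FcRγ) rose from 271 ± 0.979 to 379 ± 17.9 RPKM (SD, n = 3), 0.48 in log2 fold change (limma adjusted p = 4.30e-07).

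Of the other phosphatases and adaptors of the pathway, 25 were tested, of which 9 were higher, 11 lower and 5 not called, or 80% called against 74.3% of all tested genes (median log2 fold change -0.04). Its leading changes were rises, those of the tyrosine phosphatase *Ptpn12* (1.13), of *Dok3* (0.99), an adaptor that recruits SHIP1, and of *Ptpn22* (0.87), a phosphatase that works with Csk. *Dok1* and *Dok2*, adaptors of CD200R1 and named after their values were seen, fell, with log2 fold changes of -0.23 and -0.37 (limma adjusted p = 0.00365 and 3.31e-06).

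Among ligands and partners, 7 of 15 genes were tested, of which 3 were higher, 1 lower and 3 not called, or 57.1% called against 74.3% of all tested genes (median log2 fold change 0.07). For the class I ligands of PIR-B, *B2m* was at 689 ± 20.9 and 726 ± 34.7 RPKM and *H2-K1* at 53.9 ± 1.60 and 54.8 ± 2.46 RPKM (SD, n = 3), with overlapping groups. *H2-D1* rose from 203 ± 6.70 to 261 ± 3.39 RPKM (SD, n = 3), 0.36 in log2 fold change (limma adjusted p = 2.30e-06). All 5 collagen genes of the list, ligands of LAIR-1, were below the filter.

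Sialic acid, the ligand of Siglec-E, is made and attached by a further set of enzymes. All 17 genes of this list were tested, of which 6 were higher, 6 lower and 5 not called, or 70.6% called against 74.3% of all tested genes (median log2 fold change -0.05). *St8sia4*, which builds polysialic acid, fell from 25.0 ± 0.447 to 6.03 ± 0.0776 RPKM (SD, n = 3), -1.89 in log2 fold change (limma adjusted p = 3.60e-11). *St6gal1*, which adds sialic acid in an alpha linkage, had a log2 fold change of -1.19. The sialidase *Neu1*, which removes it, rose by 1.20 on the log2 scale (limma adjusted p = 1.18e-09).

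The kinases on which these brakes act formed the last list. Of 15 tested genes of Src-family, Syk, Btk and phosphoinositide 3-kinase signaling, 7 were higher, 7 lower and 1 not called, or 93.3% called against 74.3% of all tested genes (median log2 fold change 0.07). *Fgr*, a Src-family kinase of myeloid cells, measured 6.09 ± 0.578 RPKM with sh-NC against 0.541 ± 0.127 RPKM with sh-*Etv5* (SD, n = 3), -2.20 in log2 fold change. *Pik3ap1*, an adaptor of phosphoinositide 3-kinase, rose by 1.45 on the same scale (limma adjusted p = 4.34e-09).

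**Figure D4:**
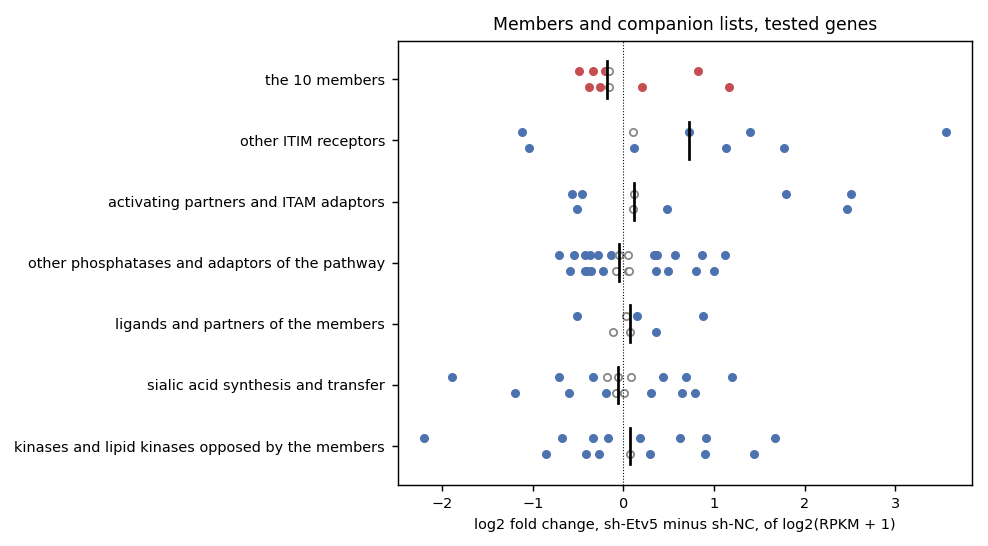
Log2 fold change of log2(RPKM + 1), sh-Etv5 minus sh-NC (x axis), of each tested gene in the main group and in 6 companion lists (rows), with open circles for genes not called and a black line at the median of each row. The medians run from -0.18 for the 10 genes to 0.72 for other ITIM receptors, and each row holds genes on both sides of 0.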

How the data were processed

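Messenger RNA of 3 sh-NC and 3 sh-*Etv5* Raw264.7 libraries was prepared by the authors with an Illumina TruSeq kit. The authors deposited RPKM values, without log transformation, for 24786 gene symbols; the column names refer to coverage tracks. The submitters' processing notes give mm10, while aligner, annotation and strand setting are not given in the sources used here. Groups came from the sample titles.

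A gene was tested if 3 or more libraries reached 1 RPKM, which left 10738 genes. Groups were compared on log2(RPKM + 1) by limma 3.58.1 under R 4.3.3, using eBayes with intensity trend and no covariate (two-sided), with Benjamini-Hochberg adjustment over all tested genes. The fit was tested on simulated data in which 200 of 10738 genes were changed. It recovered 85 of 100 changes of 0.5 in log2 and 100 of 100 changes of 1, with 9 false calls. Smaller changes were not simulated, and the changed share was far below the 74.3% called in the data. Coordinates, transcripts and 50-base matches came from GENCODE release M21 on GRCm38, the same build as mm10. The depth of each library was estimated from genes below 0.06 RPKM, and the reads behind a gene from the length of its principal transcript.

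The 10 genes and all lists were chosen with earlier results of these data known. Named genes were the 10, *Etv5*, direct ligands, *Ptpn11*, *Inppl1*, *Tyrobp*, *Fcer1g* and the 3 called genes with the largest change of each list; others are said to have been named after their values were seen. A result that this rule would name is not reported here. *Spp1* and the macrophage markers were named to describe the libraries. Alternatives were a pseudocount of 0.1 or 0.01, dropping the filter, a filter on a mean RPKM of 5, quantile normalization, rescaling to the same sum, no intensity trend, omission of single libraries, the replicate number as block, an adjusted p under 0.01 and an added threshold of 0.5 on the log2 fold change. A rescaling without the 10 highest genes was added after the data were seen.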

Additional observations from a re-analysis of the deposited data

How the results depend on the processing

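The 8 called genes kept their direction and their call under every alternative fit that included them. For *Siglece* and *Pirb* this is a description that adds no support, since their entry depended on the group in which they were high. The limits fell on *Cd300a* and *Lair1*, which were not called as deposited. With libraries rescaled to the same sum both were called, at log2 fold changes of -0.21 for *Cd300a* and -0.20 for *Lair1*, and with quantile normalization *Lair1* was called at -0.24. With each library left out in turn, *Cd300a* ranged from -0.24 to -0.11, *Lair1* from -0.22 to -0.11, and the number of the 10 genes lower in sh-*Etv5* cells from 4 to 6. The added requirement of an absolute log2 fold change above 0.5 kept *Cd47* and *Siglece* alone, so that 0 of the 10 genes were lower. This count depends on the scale, since with a pseudocount of 0.1 *Pirb* (-0.68) and *Inpp5d* (-0.50) were past it, as was *Inpp5d* (-0.55) after rescaling to the same sum and *Pirb* (-0.53) after quantile normalization. Rescaling to the same sum shifted the median of all genes by -0.05. *Pirb*, *Lair1* and *Siglece* could not be fitted at a mean RPKM of at least 5, nor *Pirb* when any one of the sh-NC libraries was left out, since they then missed the filter. Same-numbered libraries did not deviate together (correlations of 0.0739, -0.0710 and -0.0352), and a replicate block left *Cd47* at 1.17 in log2 fold change (limma adjusted p = 6.61e-08) and changed no call among the 10 genes. Depth limits *Siglece* and *Pirb* most, with as few as 27.7 and 53.5 estimated reads in a library, a counting error of 13.7% for *Pirb* and more for *Siglece*.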
